A study of Sus scrofa with 4 samples.

Results

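The untreated state of the porcine 4-cell embryo was described from the 2 control libraries of a series of 4, the other libraries being of embryos exposed to Bobcat339, a small molecule used as an inhibitor of TET dioxygenases. The embryos were parthenogenetic: oocytes were activated by an electric pulse without sperm, so both genome copies are maternal. They were held for 3 h in cytochalasin B at 7.5 µg/mL and then cultured for 48 h in PZM-3 medium supplemented with 0.4% BSA, with the incubator set to 38.5 °C and 5% CO2. Control embryos received DMSO, the solvent, which the labels list at 50 µM, the same figure as for Bobcat339. RNA was taken with TRIzol and amplified with Smart-seq2, a full-length cDNA method for very small inputs. The labels do not say how many embryos went into a library, nor whether the 2 control libraries, called control 1 and control 2 here, came from separate cultures. The spread between them may therefore be technical in part or in whole, and no p-value is given. The description covers the 17600 rows with a gene name and an Ensembl identifier among the 35248 rows of the count table. A level is given in CPM, the count divided by all counts of the library times 1e+06, and a difference as the log2 ratio of control 1 over control 2 after adding 1 CPM to each. Where genes are called the most abundant, the rank is by mean CPM, which also rises with transcript length.

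An early embryo starts with RNA and protein laid down by the growing oocyte. These maternal transcripts are stored with shortened tails, translated on demand and then removed in stages, while the embryo's own genome is switched on, which in the pig happens at about the 4-cell stage. A 4-cell transcriptome is thus a mixture of maternal messages that have not yet been removed and of newly made embryonic ones, and RNA levels alone do not separate them. In a parthenote, genes expressed from the paternal copy alone have no active copy where imprinting is intact.

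The libraries held 14390560 counts (control 1) and 13852262 counts (control 2), so 3 counts, the limit that a count of 0 allows, correspond to 0.208 and 0.217 CPM. These limits and the intervals given here cover counting error only, since the reads carry no molecular identifiers. Named rows took 76.7% and 75.6% of the counts, and 14059 and 14206 of them had a count. In control 1, 6589 named rows reached 10 CPM and 54 reached 1000 CPM, against 6421 and 61 in control 2. A mean of at least 10 CPM over both libraries was reached by 6556 named rows, which are the genes compared between libraries. Their levels had a Pearson correlation of 0.937 and a Spearman correlation of 0.928 between the libraries on the log2 scale, across genes, which are not independent replicates. Of the 6556, 421 (6.42%) differed by at least 2-fold, 384 of them higher in control 1 (5.86%) and 37 higher in control 2 (0.564%). The log2 ratio was above 0 in 3509 genes (53.5%) and below 0 in 3047 (46.5%), with a median of 0.07. These shares are the background against which every gene group is read. Gene lists also hold some rows that have no name in the table and were found by their Ensembl identifier or NCBI number, which lie outside the 6556.

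Most matched oocyte and genome activation genes reached 10 CPM, and most markers of other cell types lay below it. Of 28 matched cumulus and granulosa cell markers, the somatic cells that surround the oocyte, 3 reached 10 CPM, and the list summed to 169 CPM in control 1 and 186 CPM in control 2. Those 3 were the matrix proteoglycan VCAN at 56.0 and 82.7 CPM, the intermediate filament VIM at 42.7 and 33.6 CPM, and S100A10 at 14.4 and 12.3 CPM. The granulosa hormone AMH and the ovarian factor FOXL2 had 0 counts in both libraries, and the receptor FSHR had 0 and 0.0722 CPM. Of 18 blood and immune cell markers, 1 reached 10 CPM, at 63.7 and 83.4 CPM, and that row is named ITGAX in the table but has the identifier of ITGAM. CD4, HBE1, SLA-DRA and FCER1G had 0 counts in both, and PTPRC, the leukocyte marker CD45, had 1.18 and 1.80 CPM. No member of the lists for skin, muscle and neural cells (19 matched) or for sperm and the Y chromosome (11 matched) reached 10 CPM, and 7 of the latter, SRY, KDM5D, EIF1AY, PRM2, TNP1, TNP2 and ODF1, had 0 counts in both libraries. All rows placed on chromosome Y together took 0.0182% of the counts in control 1 and 0.0179% in control 2. Where those reads come from was not tested. In bulk RNA, fewer cells of a type and less RNA per cell cannot be told apart.

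The remaining markers were low in both libraries. Of the cumulus and granulosa list, AREG, FST, COL1A2, COL1A1, STAR, HAS2 and CD44 lay between 3.61 and 9.17 CPM, and TNFAIP6, DCN, CYP19A1, CYP11A1, GSTA1, PTX3, EREG, HSD3B1, INHBA, GJA1, PTGS2, NR5A1, LHCGR, INHA and LUM were under 2 CPM. Of the blood list, CD14, CD74 and CD68 lay between 2.02 and 4.98 CPM, and CD3E, MS4A1, LYZ, CD8A, AIF1, HBB, C1QA, C1QB and TYROBP reached at most 1.08 CPM. Of the other tissues, the highest were GCG at 5.84 and 8.37 CPM, KRT10 at 5.84 and 2.45 CPM and ALB at 2.02 and 5.70 CPM. ACTA1, CKM, SNAP25, KRT5, KRT14, MYH7, GFAP, MBP, RBFOX3, SYP, AFP, TTR, MYL2, APOA1 and TNNT3 reached at most 3.34 CPM and INS had 0 counts. The sperm genes AKAP4 (2.02 and 1.66 CPM), SPATA18, PLCZ1 and PRM1 were each under 3 CPM.

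**Figure D1:**
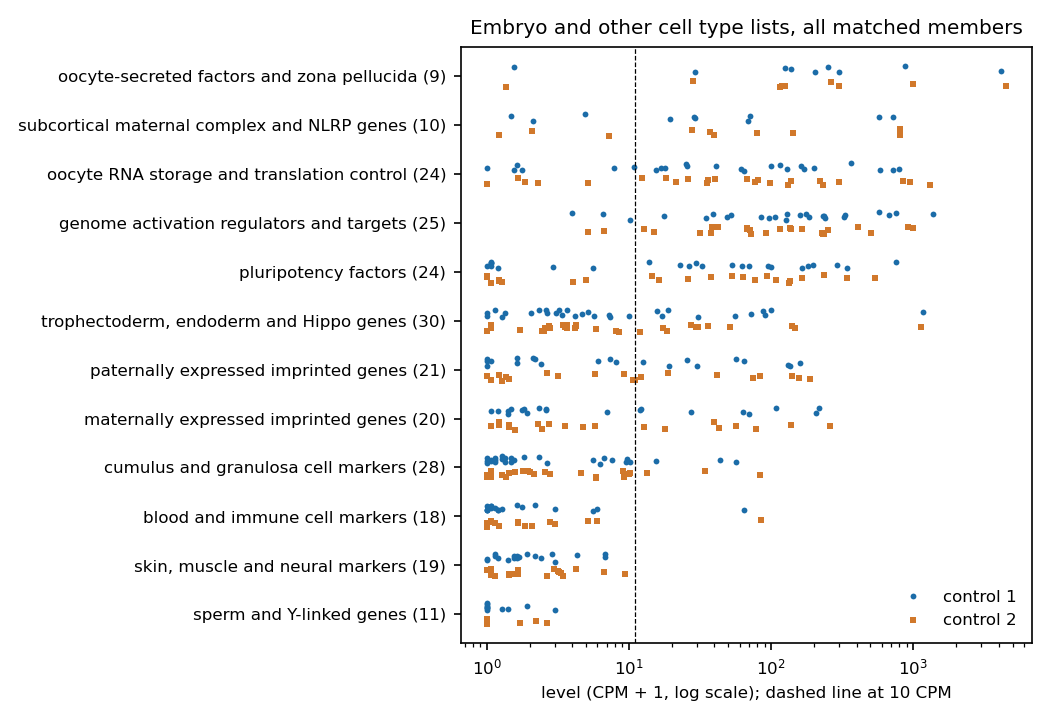
Level (CPM + 1, log scale) of every matched member of 12 gene lists in control 1 (circles) and control 2 (squares), with the number matched in parentheses and a dashed line at 10 CPM. Oocyte and genome activation lists lie mostly above 10 CPM, and the 4 lists of other cell types lie below it apart from 4 genes.

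The most abundant nuclear transcript with a name was BMP15, a growth factor secreted by the oocyte, at 4142 and 4500 CPM (4321 ± 253, SD, n = 2). Its gene lies on chromosome X from 44613122 to 44619398 (Sscrofa11.1). PCNA, the sliding clamp of the replication fork (chromosome 17, 14136886 to 14185276), had 3365 and 5037 CPM, and WEE2, the oocyte kinase that restrains CDK1 (chromosome 18, 8171138 to 8195957), had 3398 and 4754 CPM. All 3 were higher in control 2, PCNA by the most at 1.5-fold.

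Several of the next genes are also known from oocytes and from the handling of maternal products. FAM46C, a poly(A) polymerase, had 2832 and 3965 CPM, and KPNA7, the importin alpha of oocytes and early embryos, had 2764 and 3907 CPM. DNMT1, the maintenance DNA methyltransferase (chromosome 2, 68981566 to 69029855), had 2585 and 4047 CPM. The linker histone of the oocyte, H1FOO, had 2343 and 3034 CPM. In these 4 genes control 2 was the higher library, by 1.29-fold to 1.57-fold.

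UBE2D3, a ubiquitin-conjugating enzyme, had 2380 and 3259 CPM, and the mitochondrial malic enzyme ME2 had 2249 and 2990 CPM. SPRED2, an inhibitor of Ras signalling, had 2173 and 3033 CPM. ACCSL had 2398 and 2696 CPM and the autophagy receptor TAX1BP1 had 2132 and 2506 CPM. Again each was higher in control 2. The order reversed for the translation initiation factor EIF1 (2251 and 2085 CPM), for HENMT1, which methylates the ends of PIWI-interacting RNAs (2358 and 1764 CPM), and for the RNA-binding proteins CNBP (1773 and 1524 CPM) and HNRNPF (1891 and 1329 CPM). The constitutive chaperone HSPA8 had 1936 and 1203 CPM and the helicase DDX5 had 1740 and 1147 CPM.

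The rest of the 25 most abundant were genes better known from other settings. They were NCOA3, a nuclear receptor coactivator, ASTN1, PEX5L, the phosphatase subunit PPP2R1B, the scaffold protein MAGI3, the eye and brain transcription factor PAX6 and the planar polarity gene PRICKLE1. PAX6 had 1316 and 1666 CPM, and PEX5L had 1201 and 1876 CPM. All 7 were higher in control 2. Over the 25 genes, 19 were higher in control 2 and 6 in control 1, and the largest absolute log2 ratio was 0.69, in HSPA8. Together they held 5.43% of the counts in control 1 and 6.48% in control 2.

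**Figure D2:**
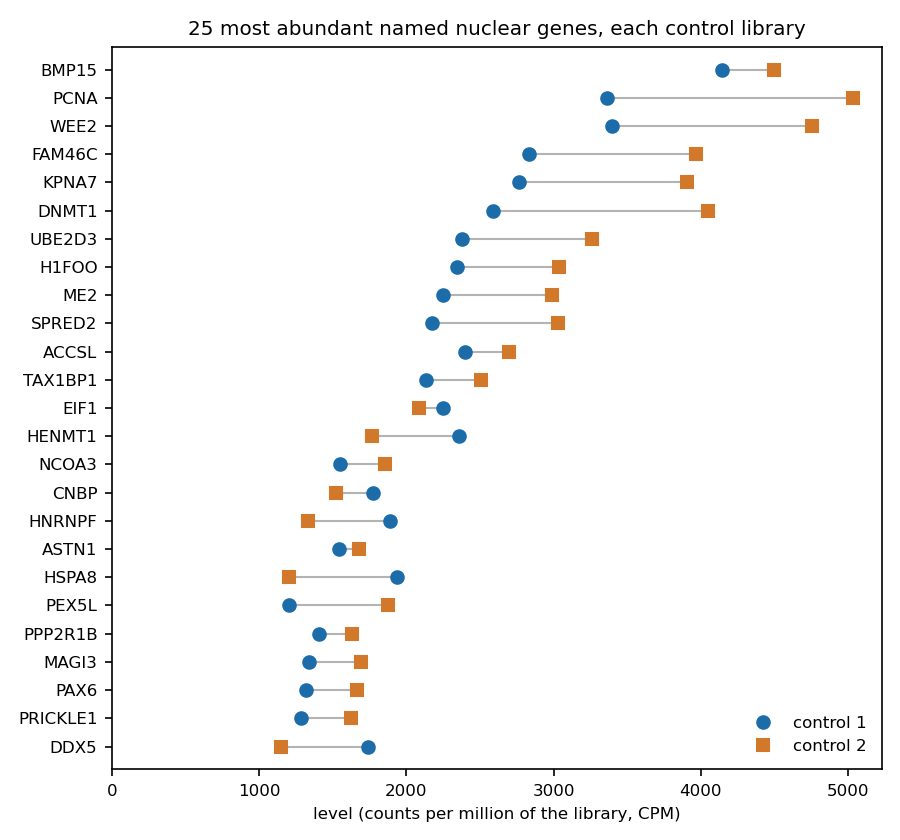
Level in CPM (linear axis from 0) of the 25 named nuclear genes with the highest mean, in control 1 (circles) and control 2 (squares), joined by a line. The squares lie to the right for 19 genes, and BMP15, PCNA and WEE2 lead in both libraries.

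CPM favours long transcripts, so the deposited FPKM, which is normalised by length, was used to compare genes with each other. On that scale BMP15 was again the first named nuclear gene, with 3191 and 3467 FPKM. H1FOO was in the second place with 2146 and 2779 FPKM, ahead of WEE2 with 1685 and 2358 FPKM and PCNA with 1377 and 2062 FPKM. DNMT1, whose transcript is long, stood at 266 and 417 FPKM. The actin-binding peptide gene TMSB10, taken from this ranking after its values were seen, was among the first 8.

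Rows of the mitochondrial genome, including those without a name, took 5.59% of the counts in control 1 and 6.36% in control 2. The 13 that encode subunits of the respiratory chain and ATP synthase summed to 54865 and 62387 CPM. COX1 was the most abundant at 16799 and 19091 CPM, followed by COX2 (6801 and 7678 CPM), ATP6 (6069 and 7036 CPM) and ND4 (5563 and 6339 CPM). The lowest of the 13 was ATP8 with 6.12 and 6.28 CPM, whose deposited interval overlaps that of ATP6. The 12 genes with at least 10 CPM were all lower in control 1, with a median log2 ratio of -0.18, from -0.35 in ND3 to -0.07 in ND4L. All 6556 genes had 5th and 95th percentiles of -0.71 and 1.02, but a median level of 48.2 CPM against 4306 CPM for the 12. The 25th and 75th percentiles of the 12 were -0.21 and -0.13. In the 52 genes at 1000 CPM or above, some of them mitochondrial, these percentiles were -0.45 and -0.12.

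Secreted factors and coat proteins of the oocyte were present and nearly equal between the libraries. Besides BMP15, its partner GDF9 had 878 and 993 CPM, the zona pellucida glycoprotein ZP4 had 301 and 301 CPM, and OOSP2 had 252 and 263 CPM. ZP2 had 138 and 125 CPM, ZP3 had 27.9 and 27.4 CPM, and ASTL, the protease that cleaves ZP2 after fertilisation, had 125 and 114 CPM. KITLG, the ligand of the KIT receptor, is in this list too and stood apart with 202 and 118 CPM. It is better known as a product of granulosa cells than of the oocyte. The list of cumulus and granulosa cell markers above does not hold it. The median log2 ratio of the 8 genes at 10 CPM was 0.02, which changed sign under 2 alternatives, and none was past 2-fold.

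The subcortical maternal complex, a protein assembly under the oocyte membrane, and the related NLRP genes were all lower in control 1. PADI6 had 723 and 803 CPM and NLRP9 had 573 and 803 CPM. NLRP13, with 70.2 and 141 CPM, was just short of 2-fold, and OOEP had 27.6 and 38.4 CPM. The log2 ratio was below 0 in 7 of 7 genes at 10 CPM, where 46.5% of all genes were below 0, and the median was -0.46.

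Genes listed for the storage of maternal RNA and the control of its translation leaned the same way. BTG4, which brings the deadenylase to maternal messages and is also in the list of RNA decay, had 722 and 1308 CPM. IGF2BP3 had 586 and 852 CPM and CPEB1, which binds the cytoplasmic polyadenylation element, had 169 and 302 CPM. Of the 19 genes at 10 CPM, 15 were below 0, against 46.5% of all genes, with a median of -0.33. The exceptions included IGF2BP1, with 163 and 66.2 CPM and past 2-fold, and LSM14A, with 364 and 230 CPM. ZAR1, an oocyte factor, had 0.625 and 1.30 CPM, whereas its relative ZAR1L had 129 and 137 CPM.

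The meiotic and oocyte cell cycle regulators had a median of -0.21, with 9 of 26 genes above 0, against 53.5% of all genes. WEE2 and H1FOO led this list too. The securin PTTG1, found by its NCBI number, had 1725 and 2085 CPM, and cyclin B1 (CCNB1) had 1191 and 1165 CPM. BUB1B, a spindle checkpoint kinase, had 138 and 234 CPM and FBXO43, an inhibitor of the anaphase-promoting complex, 62.5 and 103 CPM. CDK1 had 354 and 187 CPM and MAD2L1, another checkpoint protein, 605 and 359 CPM, the 2 highest ratios of the list. No gene of the list was past 2-fold. CDC20, an activator of the anaphase-promoting complex, had 0 counts in both libraries. Whether reads of CDC20 were lost or placed on another row was not tested.

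The machinery that degrades maternal RNA was spread on both sides, with a median of 0.17 over 34 genes, of a sign that changed under 1 alternative, and none past 2-fold. BTG4, given above, was the most abundant of this list and had its lowest ratio at -0.86. The m6A reader YTHDF2 had 1065 and 731 CPM and the deadenylase subunit CNOT7 had 789 and 953 CPM. PAN3, of another deadenylase, had 30.2 and 50.2 CPM and CNOT9 had 304 and 163 CPM. Genes of the PIWI pathway and of germline identity had a median of -0.10 over 15 genes, which changed sign under 1 alternative, and 2 of them, PIWIL2 (54.8 and 26.5 CPM) and PLD6 (47.7 and 22.8 CPM), were past 2-fold and higher in control 1. GTSF1 had 293 and 315 CPM and the oocyte transcription factor NOBOX had 27.7 and 50.0 CPM.

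Of 42 listed regulators and known targets of genome activation, 25 were matched to a row, and 23 of these reached 10 CPM. The 23 had a median log2 ratio of 0.45, with 17 above 0, against 53.5% of all genes. KLF17 was the highest at 1375 and 995 CPM. The homeobox factor OTX2 had 570 and 920 CPM and was the lowest ratio of the list at -0.69. ZNF622 had 758 and 506 CPM, the initiation factor EIF1AX 677 and 408 CPM. KLF4 (127 and 66.3 CPM) and NR5A2 (128 and 69.9 CPM) had the highest ratios. None was past 2-fold, against 6.42% of all genes. ZSCAN4, a target in mouse and human embryos, was low at 5.56 and 5.63 CPM.

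Of the pluripotency factors, 16 of 24 reached 10 CPM. TFAP2C had 754 and 537 CPM, the RNA-binding protein DPPA5 290 and 343 CPM, and MYC 341 and 234 CPM. SALL4 had 181 and 163 CPM, ESRRB 196 and 106 CPM, SOX2 164 and 135 CPM, and STAT3 99.0 and 133 CPM. The core factors POU5F1 (69.1 and 93.0 CPM) and NANOG (61.0 and 52.5 CPM) differed in opposite directions.

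TBX3 had 93.7 and 62.6 CPM, LIN28A 52.0 and 76.3 CPM, LIN28B 22 and 25 CPM, TCL1A 25.4 and 36.8 CPM and TCL1B 12.9 and 15.3 CPM. ZFP42 (31.8 and 13.5 CPM) and PRDM14 (28.4 and 13.5 CPM) were past 2-fold and higher in control 1. MYCN and TFCP2L1 were under 10 CPM, at 4.59 and 3.97 CPM and at 1.95 and 3.03 CPM. KLF2 had 0.208 and 0.289 CPM, and UTF1, TDGF1, SALL1, FGF4 and DNMT3L were at or near the limit of 3 counts.

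Genes of the first lineages were mostly low. The adhesion molecule CDH1 had 1170 and 1134 CPM, the Hippo effector YAP1 had 89.2 and 146 CPM, and its partner TEAD4 86.7 and 34.9 CPM, past 2-fold. GATA6, an endoderm factor, had 54.3 and 29.8 CPM. CDX2, a trophectoderm factor, had 0 and 0.0722 CPM, and FOXA2 had 0 counts. Of 30 matched genes, 20 were under 10 CPM.

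Imprinted genes expressed from the paternal copy were detected in part in these embryos, which have no paternal genome. Of 21 matched, 8 reached 10 CPM. MEST had 159 and 186 CPM, ZIM2, found by its NCBI number, 130 and 155 CPM, USP29 136 and 139 CPM, PEG10 63.6 and 82.2 CPM and SNRPN 56.1 and 73.2 CPM. PLAGL1 had 24.5 and 40.6 CPM, SGCE 18.0 and 18.0 CPM, and PON2 29.1 and 11.2 CPM, a log2 ratio of 1.30. PON2, the only member past 2-fold, is a doubtful member, since it is known from mouse extra-embryonic tissue as expressed mainly from the maternal copy. Whether these transcripts are maternal stores or embryonic, or imprinted at this stage in the pig, was not tested.

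The other 13 were low. IMPACT had 11.5 and 8.23 CPM, INPP5F 7.16 and 9.96 CPM, IGF2 5.07 and 9.60 CPM, and NDN 6.39 and 4.76 CPM. PEG3 had 0.625 and 0.289 CPM, NNAT 1.39 and 0.361 CPM, DIRAS3 1.18 and 2.17 CPM, L3MBTL1 1.11 and 1.66 CPM, and ZDBF2 0.625 and 0.433 CPM. RTL1 and DLK1 had at most 3 counts a library, and MAGEL2 and NAP1L5 had 0 in both.

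Of the 20 genes listed as expressed from the maternal copy, 8 reached 10 CPM. COPG2 had 206 and 257 CPM, NAP1L4 216 and 137 CPM, ZNF597 108 and 77.0 CPM and the homeobox gene DLX5 69.3 and 55.7 CPM. The ubiquitin ligase UBE3A had 62.9 and 38.8 CPM, PPP1R9A 26.4 and 41.9 CPM, TFPI2 11.1 and 16.9 CPM and CALCR 11 and 11.8 CPM. The genes IGF2R (1.60 and 3.75 CPM), PHLDA2 (6.05 and 4.76 CPM), GRB10 (1.32 and 0.433 CPM) and CDKN1C (0.834 and 1.30 CPM) were low, and so were PHACTR2, ATP10A, KCNQ1, SLC22A18, TSSC4, OSBPL5, ASB4 and GNAS, each under 3 CPM in both libraries. No gene of this list was past 2-fold.

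Per length, DNMT1 was the highest of the DNA methylation genes with 266 and 417 FPKM, followed by UHRF2 with 125 and 195 FPKM and the de novo enzyme DNMT3A with 105 and 134 FPKM. In CPM, UHRF2 had 799 and 1249 and DNMT3A had 512 and 653 CPM. UHRF1, which guides DNMT1 to replicated DNA, had 29.0 and 43.7 CPM, DNMT3B 21.5 and 28.9 CPM, and the remodeller HELLS 36.9 and 29.2 CPM. Of these 6, HELLS alone was higher in control 1. DNMT3L, the catalytically inactive partner, had 0.0695 and 0 CPM.

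The TET dioxygenases oxidise 5-methylcytosine. TET2 had 21.4 and 21.2 CPM, TET3 15.7 and 27.1 CPM and TET1 4.31 and 3.18 CPM. Per length TET3 was the highest of the 3 with 3.15 and 5.45 FPKM, then TET2 with 2.34 and 2.31 FPKM and TET1 with 0.668 and 0.492 FPKM, all far under DNMT1. Among the glycosylases of base excision, UNG was at 175 and 155 CPM (82.9 and 73.5 FPKM), TDG at 170 and 112 CPM, SMUG1 at 60.3 and 32.2 CPM and MBD4 at 21.7 and 14.4 CPM.

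Readers and guards of methylated sites included ZFP57 (28.6 and 22.1 CPM) and TRIM28 (16.6 and 11.8 CPM), which protect imprints, MBD1 (12.7 and 11.1 CPM), MBD2 (2.50 and 2.45 CPM) and MBD3. MBD3, at 21.1 and 9.31 CPM, was the only gene of the 19 at 10 CPM that was past 2-fold. GADD45B had 36.9 and 40.7 CPM and GADD45A 11.3 and 22.0 CPM, and APOBEC2 and APEX1 were under 1 CPM. The median of the 19 was 0.02 and changed sign under 2 alternatives.

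On the X chromosome, both copies of which are maternal here, USP9X had 365 and 389 CPM, HPRT1 134 and 101 CPM, EIF2S3 145 and 86.9 CPM, ATRX 99.9 and 83.3 CPM and PGK1 51.8 and 56.2 CPM. KDM6A had 35.5 and 26.6 CPM, KDM5C 28.7 and 23.4 CPM and RLIM 13.6 and 7.51 CPM. The 223 X-linked genes at 10 CPM had a median log2 ratio of 0.04, close to that of all genes.

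Among replication genes, PCNA was followed in CPM by the helicase subunits MCM7 (608 and 470 CPM) and MCM10 (406 and 507 CPM), and by POLD3 (312 and 455 CPM). POLA2, of the primase complex, had 60.4 and 25.5 CPM and was the only gene of 41 past 2-fold. In the list of histones and their chaperones, H1FOO was followed by the variant H2AFZ with 1049 and 646 CPM. The chaperone NPM1 had 571 and 467 CPM and the variant H3F3A 531 and 308 CPM. A row without a name, described as histone H3.3 and outside the list, was above these with 2068 and 1748 CPM. H2AFV, with 110 and 52.6 CPM, was past 2-fold.

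Histone modifiers and Polycomb genes had no member of 43 past 2-fold, and the sign of their median of 0.14 changed under 1 alternative. The demethylase KDM5A had 433 and 525 CPM, the methyltransferase NSD1 347 and 313 CPM, the bromodomain protein BRD2 296 and 326 CPM and ASH2L 229 and 295 CPM. SUV39H2, which methylates lysine 9 of histone H3, had 99.1 and 185 CPM, and RNF2, of Polycomb complex 1, had 140 and 230 CPM. WDR5, a core subunit of the lysine 4 methyltransferases, went the other way with 114 and 60.1 CPM. The demethylase KDM5B did too, with 176 and 99.0 CPM.

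Among cyclins and their kinases, with a median of 0.06 over 19 genes and none past 2-fold, CCNB1 was followed by CKS2, a subunit of CDK complexes, with 1104 and 806 CPM. CDK2 had 11 and 21.1 CPM and the inhibitor CDKN1A had 14.2 and 22.6 CPM. In the cytoskeleton, the tubulins TUBA1C (1075 and 1475 CPM) and TUBB4B (904 and 623 CPM), the actin ACTG1 (551 and 719 CPM) and TMSB10 (537 and 455 CPM) were the most abundant. The lamin LMNB2 (29.9 and 14.2 CPM) was past 2-fold and LMNA (16.7 and 26.7 CPM) was the lowest ratio. The centrosome list had a median of -0.15 over 20 genes with none past 2-fold, and the kinase AURKA, found by another table, had 726 and 700 CPM.

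Cytosolic ribosomal proteins had the highest list median and lay on the same side of 0 throughout. Of 76 matched genes, 68 reached 10 CPM, and the log2 ratio was above 0 in 68 of 68, against 53.5% of all genes. Their median was 0.88, where that of all genes was 0.07. Past 2-fold were 17 (25%), all higher in control 1, against 5.86% of all genes. Summed over all 76, the list held 9773 CPM in control 1 and 5688 CPM in control 2.

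The acidic stalk proteins RPLP1 (624 and 379 CPM) and RPLP0 (436 and 346 CPM) were the most abundant, and RPL15 had 295 and 188 CPM. RPS12 had the highest ratio with 29.1 and 9.17 CPM (1.57), then RPS23 with 60.7 and 22.6 CPM (1.39). FAU (10.4 and 9.82 CPM, 0.07) and RPS28 (111 and 99.5 CPM, 0.16) were the nearest to equal. The large subunit (41 genes, median 0.83) and the small subunit (26 genes, median 0.91) did not stand apart from each other. Ribosomal proteins have many processed copies, and how reads shared with such copies were counted is not stated in the labels. Rows found by identifier rather than by name did not set the value, since the 39 genes named in the table had a median of 0.90.

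Other genes of protein synthesis leaned to control 1 as well. Ribosome biogenesis genes had a median of 0.72 over 39 genes, with 37 above 0, against 53.5% of all genes. In this list 4 (10.3%) were past 2-fold, all higher in control 1, against 5.86% of all genes. The nucleolar proteins NOLC1 (669 and 422 CPM) and NCL (548 and 408 CPM) and the snoRNP protein NOP58 (504 and 342 CPM) were among its most abundant, and EMG1 (109 and 51.0 CPM) and NOP2 (378 and 182 CPM) had its highest ratios, while DDX21 (165 and 186 CPM) had the lowest at -0.17. Translation factors had a median of 0.58 over 42 genes, with 39 above 0 and 5 (11.9%) past 2-fold, all higher in control 1. EIF4A1, the helicase of initiation, had 1189 and 812 CPM. EEF1G had 47.5 and 17.7 CPM and EEF1D 60.9 and 24.6 CPM, the 2 highest ratios, while EIF5B had 376 and 578 CPM and went the other way.

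Splicing factors had a median of 0.49, with 43 of 48 above 0. Past 2-fold and higher in control 1 was 1 (2.08%), SNRPF (25.9 and 12.3 CPM), against 5.86% of all genes. SRSF1 had 783 and 558 CPM and HNRNPA2B1 752 and 509 CPM. RNA polymerase II subunits and general factors had a median of 0.27, with the Mediator subunit MED1 at 685 and 775 CPM.

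The energy genes of the nucleus and those of the mitochondrial genome lay on opposite sides of 0. Nuclear respiratory chain subunits had a median of 0.63 over 61 genes, with 54 above 0, against 53.5% of all genes. Past 2-fold were 11 (18.0%), all higher in control 1, against 5.86% of all genes. ATP5B, the catalytic subunit of the ATP synthase, had 701 and 356 CPM, COX8A 453 and 392 CPM and COX4I1 102 and 41.3 CPM, the last with the highest ratio of 1.28. The 27 NDUF subunits of complex I had a median of 0.72, the 13 ATP synthase subunits 0.65, and the 4 SDH subunits of complex II 0.18. Mitochondrial ribosomal proteins had a median of 0.57 over 57 genes, with 50 above 0 and 8 (14.0%) past 2-fold, all higher in control 1. MRPL4 had 231 and 148 CPM and MRPS12 51.3 and 18.9 CPM, whereas MRPS14 had 87.9 and 154 CPM.

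Genes of glycolysis and pyruvate use had a median of 0.43 over 28 genes. The lactate transporter SLC16A1 had 631 and 446 CPM, PDHA1 620 and 375 CPM and hexokinase HK2 500 and 269 CPM. PCK1, of gluconeogenesis, had 27.0 and 7.72 CPM and PGAM1 352 and 141 CPM, the 2 highest ratios. PGD, of the pentose phosphate pathway, went the other way with 53.9 and 93.5 CPM. In the lipid list (24 genes, median 0.41), ACSL3, which activates fatty acids for droplets, had 801 and 994 CPM, and the droplet coat protein PLIN2 had 325 and 166 CPM.

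Proteostasis genes were abundant and mostly higher in control 1. Proteasome subunits had a median of 0.49, with 29 of 37 above 0, against 53.5% of all genes. Past 2-fold and higher in control 1 were 3 (8.11%), near the 5.86% of all genes. PSMD11 had 381 and 398 CPM, PSMD2 419 and 330 CPM and PSMD6 140 and 63.8 CPM. In the unfolded protein response, the median was 0.55 over 23 genes, with the disulfide isomerase PDIA4 at 844 and 563 CPM and the chaperone CANX at 164 and 69.9 CPM, past 2-fold. Heat shock proteins and chaperonins had a median of 0.35 over 26 genes and none past 2-fold. After HSPA8, DNAJB1 had 1055 and 934 CPM, CCT8 856 and 894 CPM and DNAJA1 704 and 669 CPM.

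Among ubiquitin genes, UBB, found by its identifier, had 3437 and 4358 CPM, and RNF114 had 241 and 448 CPM, the lowest ratio of that list at -0.90. Antioxidant genes were split. PRDX2 had 455 and 579 CPM and TXNRD1 522 and 306 CPM. PRDX4 (247 and 80.2 CPM) and HMOX1 (46.3 and 12.1 CPM) were past 2-fold and higher in control 1, while GPX1 (21.1 and 37.2 CPM) and GSR (80.0 and 134 CPM) were the lowest ratios. GPX4 had 0 counts in both libraries, and whether its reads were lost or placed on another row was not tested. None of 19 metal-handling genes at 10 CPM was past 2-fold, the copper importer SLC31A1 leading with 785 and 515 CPM.

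Immediate early genes, which respond to handling and stress within minutes, had a median of 0.08 over 10 genes, of a sign that changed under 2 alternatives. DUSP1 had 531 and 357 CPM, MYC the values above, FOS 75.8 and 103 CPM and EGR1 51.7 and 89.3 CPM. JUN, with 21.9 and 47.7 CPM, was past 2-fold and higher in control 2, but its row has no name in the table and was found through another one, so it is not among the 37. In the apoptosis and p53 list, the survival factor BCL2L1 had 947 and 1474 CPM, and CASP6 (46.1 and 17.2 CPM) and BID (139 and 59.6 CPM) were past 2-fold and higher in control 1.

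**Figure D3:**
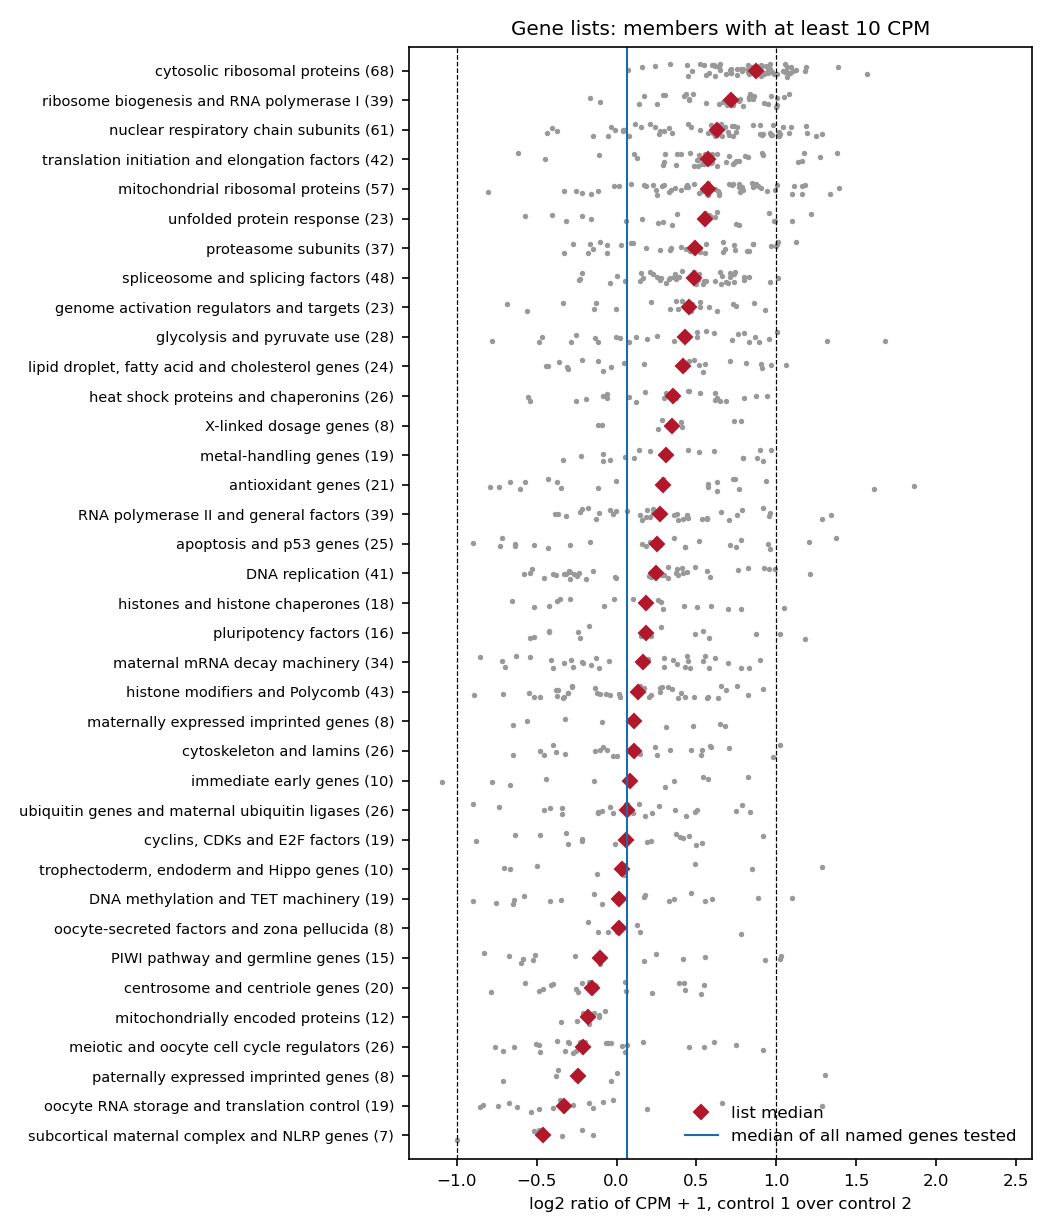
Log2 ratio of CPM + 1, control 1 over control 2, for the members with at least 10 CPM (grey points) of the 37 lists with at least 5 such members, with the list median (diamond), the median of all 6556 genes (vertical line) and 2-fold differences (dashed). The list of cytosolic ribosomal proteins lies wholly above 0 and that of the subcortical maternal complex wholly below it.

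Of these 37 lists, 25 had a median above that of all genes, 6 had a median of at least 0.5 and 4 had a median of -0.2 or lower. The 6 were cytosolic ribosomal proteins, ribosome biogenesis, nuclear respiratory chain subunits, translation factors, mitochondrial ribosomal proteins and the unfolded protein response. The 4 were the subcortical maternal complex, oocyte RNA storage, paternally expressed imprinted genes and meiotic regulators.

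Over all genes, the absolute log2 ratio had a median of 0.43, which is 1.34-fold. The 95% interval that counting error alone allows for the ratio of the CPM left out equality in 5343 of the 6556 genes (81.5%). These reads were amplified and carry no molecular identifiers, so that interval is narrower than the error of the measurement, and with 2 libraries the source of the difference cannot be divided further. The count past 2-fold was 203 with a pseudocount of 5 CPM and 666 without a filter on low counts. On the deposited FPKM, where the unit changes and the pseudocount with it, the count was 265. Without a filter the median log2 ratio was -0.01 in place of 0.07.

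**Figure D4:**
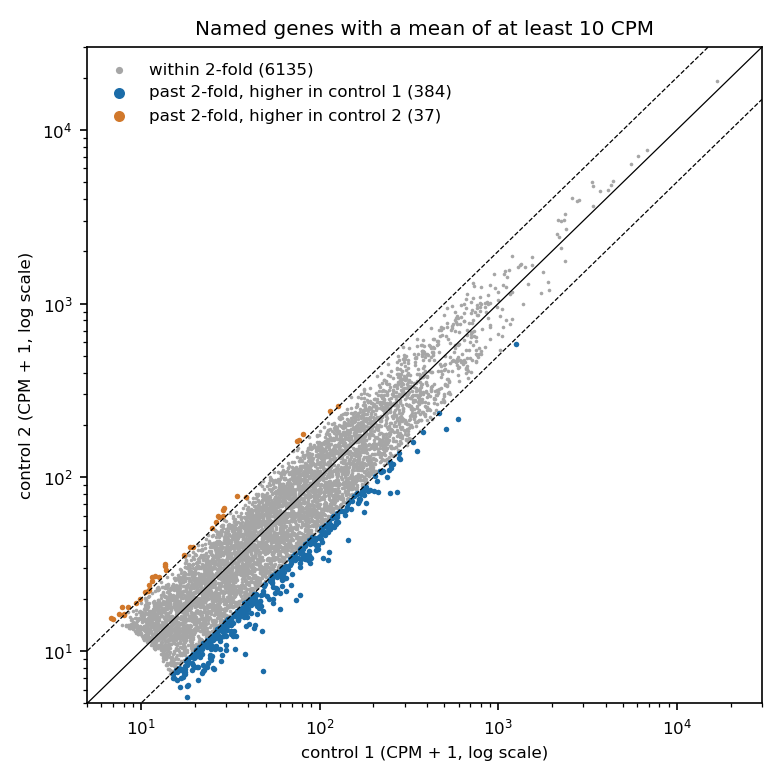
Control 2 against control 1 for the 6556 named genes with a mean of at least 10 CPM (CPM + 1, both axes log scale), with lines at equality (solid) and at 2-fold (dashed). Most of the 421 genes outside the dashed lines lie below the lower line, where control 1 is higher.

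The difference depended on level at the top of the range. Genes past 2-fold made up 8.92% of those with 10 to 30 CPM, 6.69% with 30 to 100 CPM, 3.65% with 100 to 300 CPM and 0.998% with 300 to 1000 CPM, and none of 52 genes at 1000 CPM or above. In those 52 the median was -0.22 and 11 were above 0, whereas the 4 lower classes had medians between 0.03 and 0.08. The 52 include mitochondrially encoded genes, from COX1 down to ND4L, which were all below 0. They also include the 25 most abundant nuclear genes, of which 19 were higher in control 2. The direction also moved with length, taken here as the length behind the deposited FPKM. The 1311 shortest genes had a median of 0.24 with 9.76% past 2-fold, and the 1312 longest -0.01 with 3.13%. The median length was 2025 bases for ribosomal proteins and 2058 bases for nuclear respiratory chain subunits, against 4536 bases for all genes, so length moves with these lists, and its part in their difference was not tested. Ribosome biogenesis genes (4705 bases) and translation factors (4437 bases) were of about the usual length, and the part of length in their difference was not tested either. Over all 6556 genes the Spearman correlation of ratio and length was -0.10. Library depth differed little, so thinning control 1 to the total of control 2 could move few genes, and it left 424 past 2-fold. Such a small thinning cannot decide what part depth has.

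**Figure D5:**
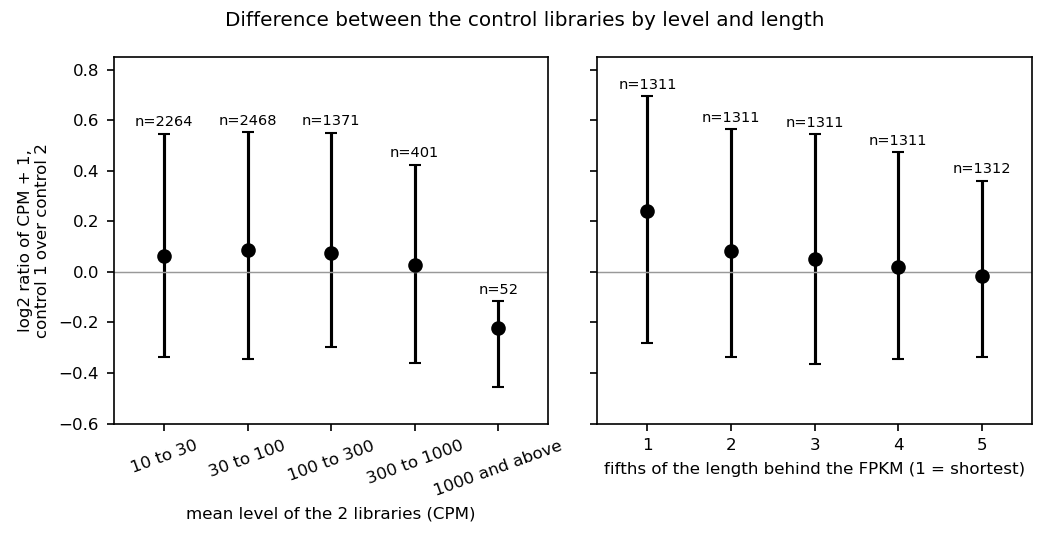
Median log2 ratio of CPM + 1, control 1 over control 2 (points), with the 25th and 75th percentiles (bars), by class of mean level (left) and by gene length in 5 classes of equal size (right), with the number of genes above each bar. The class at 1000 CPM and above and the shortest genes stand apart from the rest.

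The gene that differed most was POMGNT2, a glycosyltransferase of dystroglycan (chromosome 13, 26523983 to 26525724), with 47.5 CPM in control 1 and 6.64 CPM in control 2, 6.34-fold after adding 1 CPM. It rests on 683 and 92 counts. GSN, the actin-severing gelsolin (chromosome 1, 261295717 to 261376583), had 37.5 and 8.59 CPM and was 4.01-fold higher. These were the only 2 genes past 4-fold.

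The next were RAB38, a GTPase of melanosome transport (73.0 and 18.6 CPM), the receptor GPRC5C (3.70-fold), HMOX1, the haem oxygenase already named, and a row named FOLR1 whose description gives another folate receptor (59.0 and 16.4 CPM). TSPAN14, a tetraspanin, had 144 and 42.4 CPM, and WDR46, of ribosome biogenesis, 110 and 32.3 CPM. MDK, the growth factor midkine, had 17.2 and 4.48 CPM. The most abundant of the 20 was SYT11, a synaptotagmin, with 272 and 81.1 CPM, followed by PRDX4, an endoplasmic reticulum peroxiredoxin. The others were RNF141, the connexin GJB5, PCK1, the choline kinase CHKB, the fucosyltransferase POFUT2, the amino acid transporter SLC43A2, the methyltransferase ICMT, SERINC5 and C7orf50, the last 3.04-fold higher. All 20 lay between 10.9 and 177 CPM in the mean.

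Genes higher in control 2 differed by less. TMEM216, a ciliary membrane protein (chromosome 2, 10112730 to 10122019), had 12.7 and 30.8 CPM, 2.32-fold. MACC1 had 10.6 and 25.6 CPM, TMEM248 28.1 and 65.6 CPM, and DCTN6, of the dynactin complex, 6.81 and 16.8 CPM. The calcium-binding protein SRI had 5.77 and 14.4 CPM, KCTD16 33.6 and 77.4 CPM and GIN1 12.7 and 29.8 CPM.

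SLC7A11, the cystine transporter, had 11 and 26.1 CPM. The most abundant of the 20 were the homeobox gene CUX2 (79.9 and 177 CPM), the netrin receptor UNC5C (76.0 and 162 CPM) and CCDC34 (73.5 and 161 CPM). JPH3, DIRAS2, ANKDD1B, SIAH3, PGBD5, LACTB, SLC35D1, TJAP1 and SMTNL2 completed the 20, the last at 2.11-fold.

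The 10 genes that differed least among the 200 most abundant were KIF23, DDX18, FEM1C, CCNB1, ZFAND5, RORB, PNP, CDH1, UBAP2 and CTBS, all with an absolute log2 ratio of at most 0.05. The kinesin of cytokinesis KIF23 had 574 and 578 CPM, the helicase DDX18 502 and 497 CPM, and the purine enzyme PNP 985 and 956 CPM. At the 2-fold threshold, KLC4 (29.7 and 14.4 CPM) was just past it and CHPF2 (30.3 and 14.7 CPM) just short of it. At the threshold of 10 CPM, ARHGEF38 had a mean of 10.0091 and TUBGCP2 of 9.99 CPM.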

How the data were processed

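The authors deposited whole-number read counts per gene and library, summing to a different total in each, in a table that also gives FPKM values, normalised by length and depth per the file headers, and a length per gene. Per the submitters' processing notes, the tools were HISAT2 2.0.5, Trimmomatic, DESeq2 1.16.1 and HTSeq, listed with no roles, and the build was Sscrofa10.2. The strand setting and the treatment of reads that fit several rows are not stated in the labels. Overlapping, antisense and near-identical genes may share or lose counts. The coordinates nevertheless match Sscrofa11.1: 98.8% of 14155 names compared lie on the same-named RefSeq gene there. Coordinates are printed as in the table and called Sscrofa11.1. The deposited length matches the length behind the FPKM within 1% in 17563 of 28781 rows with a value.

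Samples were grouped by the treatment label. CPM is the count over the sum of all 35248 rows (25880 Ensembl rows and 9368 XLOC loci), times 1e+06, and a pseudocount of 1 CPM was added before log2. Genes with a mean of at least 10 CPM were compared. No test was run, because the 2 libraries belong to 1 group; intervals are exact (Clopper-Pearson) binomial, at 95%, for the ratio of the CPM without the pseudocount. Chi-square per gene compared between the libraries was 92.5, so they are not the same reads deposited again, and they were counted as 2 samples. Measurement columns that belong to no sample number 0. Gene lists (41, 1378 entries) were matched by table name (1089), Ensembl identifier (127) or NCBI number (83). Members and lists were chosen with earlier results of these data known. Genes are named by rule: the 25 most abundant nuclear genes, the 20 highest and 20 lowest ratios, of each list the 4 most abundant members and the 2 highest and 2 lowest ratios, all members of the imprinted, DNA methylation, X-linked, pluripotency and marker lists, and the 10 of the 200 most abundant that differ least. TMSB10 and the list members ZP3, ASTL, OOEP, ZAR1, ZAR1L, CDC20, ZSCAN4, CDX2, FOXA2 and GPX4 were named after their values were seen. Some genes that the rule takes are not reported here. Alternatives were other scalings (TMM by edgeR 4.0.16, DESeq2 1.42.0 size factors, sums without abundant or mitochondrial rows), other pseudocounts and filters, thinning and the deposited FPKM. Scripts (Python 3.11.15, pandas 2.3.3, scipy 1.17.1, R 4.3.3) were tested on simulated data.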

Additional observations from a re-analysis of the deposited data

Results flagged for a closer look

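A large part of the counts lies on rows that the description of named genes does not use. Ensembl rows without a name held 14.1% of the counts in control 1 and 13.4% in control 2, and XLOC loci, which have no Ensembl identifier, held 9.22% and 10.97%. They are listed because their counts stand far above the limit that a count of 0 allows. What the XLOC loci are was not tested.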

How the results depend on the processing

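The number of named genes past 2-fold between the control libraries was 421 (384 higher in control 1 and 37 in control 2). With a pseudocount of 5 CPM it was 203 (194 and 9), with a mean of at least 50 CPM 148 (141 and 7) and on the deposited FPKM 265 (245 and 20). Without a filter it was 666, of which 131 were higher in control 2, and with a mean of at least 5 CPM 61 were higher in control 2. Other scalings gave 387 to 514. The 514 came with DESeq2 size factors, which were 1 in both libraries and so did not correct for depth. The median log2 ratio of all genes, 0.07, was -0.01 without a filter, and the medians of 10 lists changed sign under at least 1 alternative. The number of lists with a median of at least 0.5 in absolute value was 5 to 9, the 9 being with the DESeq2 size factors. Adding symbols from other tables, chosen after seeing the data, gave 489 genes past 2-fold. Named genes at 10 CPM numbered 6421 without control replicate 1 and 6589 without control replicate 2, and leaving out either library leaves no ratio. No paired analysis was possible because both libraries belong to 1 group and no groups were compared. Depth limits genes near 3 counts.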

Other observations

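The most abundant of all nuclear rows have no name in the table. A row on chromosome 9 described only as an oocyte form of a protein had 7230 CPM in control 1 and 4282 CPM in control 2. A row described as gametocyte-specific factor 1-like, on chromosome 5, had 3917 and 6118 CPM. Both are above BMP15 in the mean, and they differ in opposite directions. A row described as tripartite motif-containing protein 43-like had 3114 and 2734 CPM.

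The 1042 unnamed Ensembl rows with at least 10 CPM had a median log2 ratio of 0.10. Past 2-fold, 68 were higher in control 1 and 12 in control 2. Among the 6556 named genes the shares were 5.86% and 0.564%. The 1037 XLOC loci with at least 10 CPM went the other way, with a median of -0.51, 12 past 2-fold and higher in control 1 and 73 higher in control 2. No cause of that difference was tested.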
